A study of Mus musculus with 28 samples.

Results

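The interferon gamma signaling axis was followed through 8 genes, chosen by name as the cytokine, its receptor, the kinases on that receptor, a pair of the transcription factors it induces and its feedback inhibitor. These were Ifng, Ifngr1, Ifngr2, Jak1, Jak2, Irf1, Irf8 and Socs1. All 8 were among the 55341 gene rows measured, and all 8 passed the filter on low counts. RNA sequencing was performed on 28 whole AB1-HA tumors, a murine mesothelioma line, grown under the skin of BALB/c.AusBP mice. Mice were female, 8 to 10 weeks old, and received PBS (n = 4), ICB (n = 5), 5-FU (n = 5), cisplatin (n = 4), 5-FU+ICB (n = 5) or cisplatin+ICB (n = 5). ICB stands for immune checkpoint blockade, here antibodies to CTLA-4 and PD-L1 at 100 µg each, with the PD-L1 antibody repeated. 5-FU was given intravenously at 75 mg/kg and cisplatin intraperitoneally at 6 mg/kg, and tumors were taken on day 7 after treatment began. Each tumor came from a different mouse, and every tumor carried the same transplanted line.

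IFN-γ is secreted mainly by activated T cells and NK cells. It binds a receptor made of IFNGR1, the ligand-binding chain, and IFNGR2, the signaling chain, on which the kinases JAK1 and JAK2 act. The signal reaches genes through a short DNA element termed GAS and switches on genes that include Irf1, Irf8 and Socs1. IRF1 and IRF8 carry the program on to antigen presentation and chemokine genes, and SOCS1 closes the loop by inhibiting the JAK kinases. Ifng is made by few cells of a tumor, while the receptor chains and JAK1 are made by nearly all cells, so a bulk tumor library reports a mixture. In such samples, a change in the number of cells of a type and a change in RNA per cell cannot be told apart.

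Levels are given as CPM, a gene's counts relative to the library's total, with libraries aligned by the TMM method. Library totals ran from 23541733 to 33950805 counts, so that 3 counts, taken as the detection floor, equalled 0.0884 to 0.127 CPM. The leukocyte gene Ptprc (CD45) was present in all tumors and moved with treatment, with a median of 94.1 CPM in PBS, 402 in ICB, 143 in 5-FU, 112 in cisplatin, 374 in 5-FU+ICB and 279 in cisplatin+ICB. Of 9 mesothelial markers, Msln and Pdpn had medians of 142 and 101 CPM over all tumors. The other 7 (Wt1, Upk3b, Lrrn4, Krt19, Calb2, Krt8 and Krt18) had medians of 1.05 CPM or less, with Upk3b at or under the floor in all 28 tumors, so most of this list went against the label of the line. Skeletal muscle genes (Acta1, Ckm, Myh4 and Mylpf) summed to between 1.52 and 3969 CPM, and their part in the values below was not tested. The library of cisplatin+ICB replicate 1 stood apart for several of the genes, as described with them. It also had the lowest TMM factor of all libraries, 0.685, beside 0.781 to 1.15 in the others, so it was atypical beyond these genes.

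The cytokine itself differed most between treatments. In PBS treated tumors, Ifng was at 0.203, 0.407, 0.398 and 0.365 CPM in replicates 1 to 4, or 5 to 12 counts. In ICB treated tumors it was at 12.4, 16.4, 14.5, 8.32 and 14.0 CPM. In 5-FU+ICB treated tumors it was at 12.2, 4.34, 8.84, 7.86 and 12.4 CPM. Every tumor of the ICB and 5-FU+ICB groups lay above every PBS tumor, by a wide gap. In 5-FU treated tumors Ifng was at 1.34, 1.51, 5.21, 0.642 and 2.47 CPM, and in cisplatin treated tumors at 0.781, 0.381, 0.235 and 0.622 CPM. All 5-FU tumors were above all PBS tumors, whereas the cisplatin tumors overlapped PBS, with replicates 1 and 4 above all PBS tumors and the others within the PBS range. In cisplatin+ICB treated tumors Ifng was at 0.848, 12.4, 0.913, 12.3 and 8.52 CPM. These 5 tumors did not form a single range, since replicates 2, 4 and 5 lay within the ICB range and replicates 1 and 3 lay close to the highest cisplatin tumor.

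**Figure D1:**
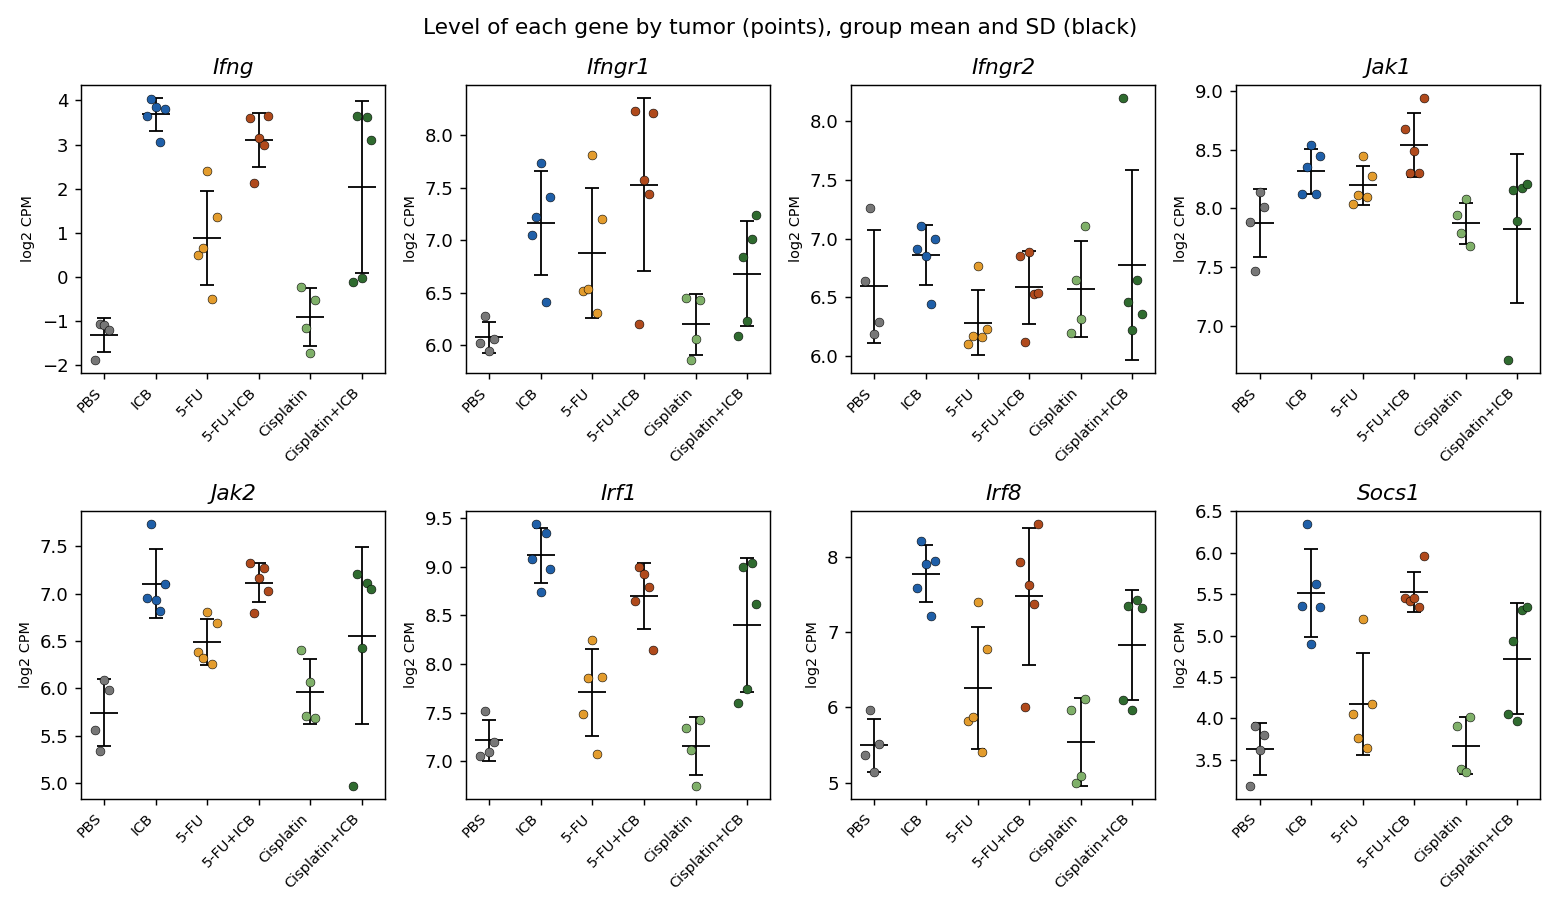
Level of each of the 8 genes (log2 CPM, vertical axis) in every tumor by treatment group; points are tumors, and black marks are the group mean and SD. Ifng lay above all PBS tumors in every ICB, 5-FU and 5-FU+ICB tumor, and the 5 cisplatin+ICB tumors fell apart into 3 high (8.52 to 12.4 CPM) and 2 low values (0.848 and 0.913 CPM).

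Differences were tested gene by gene with edgeR's quasi-likelihood test, with p-values adjusted by the Benjamini-Hochberg method over all genes tested, and a gene was called when its adjusted p was under 0.05 and its log2 fold change exceeded 0.5 in either direction. With ICB, Ifng rose by 5.26 ± 0.57 on the log2 scale (SE, adjusted p = 2.44e-05), a 38.4-fold difference from PBS. It rose by 4.74 ± 0.55 with 5-FU+ICB (adjusted p = 4.71e-05) and by 4.34 ± 0.76 with cisplatin+ICB (adjusted p = 0.0116). It also rose with 5-FU alone, by 2.69 ± 0.52 (adjusted p = 0.00421), a 6.46-fold difference. With cisplatin alone, the difference of 0.56 ± 0.75 was within the error (adjusted p = 1.00). All of these comparisons share the same 4 PBS tumors, and those tumors held few Ifng counts, so the size of each fold rests on a low denominator. The call for cisplatin+ICB was lost without PBS replicate 1, 3 or 4, with log2 fold changes between 4.04 and 4.71 over the 9 fits that each left out 1 tumor of the pair of groups.

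Among the 8 genes, 6 rose with ICB against PBS and none fell. Across all 17916 genes tested in that comparison, 37.8% were called and 19.0% were called higher, so a large part of the transcriptome differed between these groups. The called members were Ifng, Ifngr1, Jak2, Irf1, Irf8 and Socs1, and the median log2 fold change of the 8 was 1.68, beside -0.03 for all genes tested. With 5-FU+ICB against PBS, 7 of the 8 rose, all except Ifngr2, beside 40.7% of all genes called and 21.9% called higher, and this count stayed at 7 whichever tumor was left out. With cisplatin+ICB against PBS, 4 rose (Ifng, Irf1, Irf8 and Socs1), beside 6.10% of 17819 genes called and 4.70% called higher. With 5-FU alone, 2 rose (Ifng and Jak2), beside 23.0% called and 9.98% called higher. With cisplatin alone edgeR called none of the 8 and 0% of all genes, none of the 8 had an unadjusted p under 0.05, beside 1.78% of all genes, and DESeq2, a second count test, also called none of the 8 and 0.0114% of genes.

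**Figure D2:**
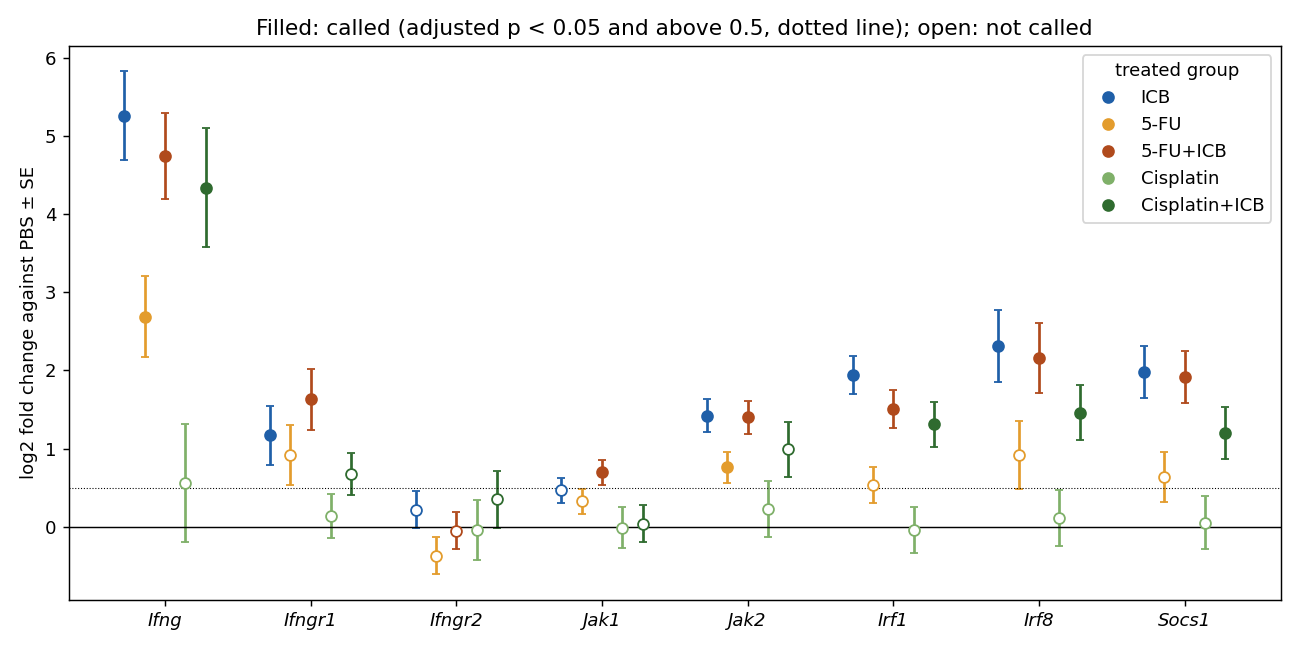
Log2 fold change against PBS with its SE (vertical axis) for each of the 8 genes and each of the 5 treated groups; filled points were called and open points were not. Ifng had the highest values, up to 5.26 with ICB, and the cisplatin points lay near 0 for every gene, with the largest at 0.56 for Ifng.

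Some of these counts rested on single tumors. The share of all genes called in the same fit is given beside each. The count for ICB against PBS was 5 without PBS replicate 1 (29.3%) or ICB replicate 3 (32.1%), where the call of Ifngr1 was lost, and 7 without ICB replicate 1, 2 or 4 (37.2%, 30.5% and 39.8%), where Jak1 passed. Without PBS replicate 3 (37.0%) it stayed at 6, with Ifngr1 lost and Jak1 gained. The count for 5-FU against PBS was 1 without PBS replicate 1 or 2 (10.5% and 7.87%), where Jak2 was lost, and 3 without 5-FU replicate 4 (19.9%), where Irf1 passed. The count for cisplatin+ICB against PBS was 0 without PBS replicate 1, 3 or 4 (0% in each) and reached 6 without cisplatin+ICB replicate 1 (35.3%). It was 1 without cisplatin+ICB replicate 2 or 4 (1.40% and 1.50%) and 2 without replicate 5 (2.04%). It was also 0 in a model of those 2 groups alone (0%). Over the fits of this comparison that left out 1 tumor, the count of the 8 was 0 where no gene at all was called and highest where the share of all genes was highest.

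Of the receptor chains, Ifngr1 was called with ICB and 5-FU+ICB and Ifngr2 in no comparison with PBS, and the difference between the chains was not tested. Ifngr1, the ligand-binding chain, was at 65.0, 77.8, 61.2 and 66.5 CPM in PBS tumors and at 132, 149, 214, 85.2 and 171 CPM in ICB tumors. The groups did not overlap, and Ifngr1 rose by 1.17 ± 0.38 on the log2 scale with ICB (adjusted p = 0.0207). In 5-FU+ICB tumors it was at 299, 73.2, 190, 174 and 297 CPM, a rise of 1.63 ± 0.39 (adjusted p = 0.00354) in which replicate 2 lay within the PBS range. With 5-FU it was at 91.6, 92.9, 224, 79.2 and 147 CPM, all above PBS, with a log2 fold change of 0.92 ± 0.38 that missed the threshold by edgeR (adjusted p = 0.0784), whereas DESeq2 called it at 0.97 ± 0.39 (adjusted p = 0.0437). With cisplatin+ICB the difference of 0.68 ± 0.27 also missed it (adjusted p = 0.129).

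Ifngr2, the signaling chain, was called in none of the 5 comparisons with PBS. Its level ran from 73.2 to 153 CPM in PBS, 86.8 to 138 in ICB, 68.4 to 109 in 5-FU, 73.4 to 138 in cisplatin and 69.6 to 118 in 5-FU+ICB, so that all groups overlapped. The log2 fold change was 0.22 ± 0.24 with ICB (adjusted p = 0.456) and -0.05 ± 0.24 with 5-FU+ICB (adjusted p = 0.881). In cisplatin+ICB replicate 1 it stood at 293 CPM, beside 74.6 to 101 CPM in the other 4 tumors of that group. As background, IFNGR2 is made by most cell types.

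Of the kinases, Jak2 was called with ICB, 5-FU and 5-FU+ICB and Jak1 with 5-FU+ICB, and the difference between them was not tested. Jak2 was at 47.0, 40.4, 68.2 and 62.9 CPM in PBS tumors, at 124, 214, 122, 113 and 137 CPM in ICB tumors, and at 160, 111, 144, 155 and 130 CPM in 5-FU+ICB tumors. There was no overlap with PBS, and Jak2 rose by 1.42 ± 0.21 with ICB (adjusted p = 0.000248) and by 1.40 ± 0.21 with 5-FU+ICB (adjusted p = 0.000328). In 5-FU tumors it was at 83.3, 80.0, 112, 76.3 and 103 CPM, again above all PBS tumors, and it rose by 0.76 ± 0.20 (adjusted p = 0.0148). With cisplatin+ICB it was at 31.2, 148, 86.4, 138 and 132 CPM, where replicate 1 lay below every PBS tumor and the difference of 0.99 ± 0.35 was not called (adjusted p = 0.0964). Without that replicate Jak2 was called, and DESeq2 called it with all 5 tumors (adjusted p = 0.0329).

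Jak1, the kinase shared by many cytokine receptors, was at 235, 177, 283 and 258 CPM in PBS tumors and at 278, 327, 372, 279 and 350 CPM in ICB tumors. ICB replicates 1 and 4 lay below the highest PBS tumor. The difference of 0.47 ± 0.16 had an adjusted p of 0.0258 but fell short of the fold threshold, and DESeq2 placed it just past that threshold, at 0.51 ± 0.17 (adjusted p = 0.0102). In 5-FU+ICB tumors Jak1 was at 410, 315, 361, 316 and 490 CPM, above all PBS tumors, a rise of 0.70 ± 0.16 (adjusted p = 0.00283). In cisplatin+ICB it was at 105 CPM in replicate 1 and 237 to 297 CPM in the others.

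The transcription factors Irf1 and Irf8 rose in all 3 groups that received ICB. Irf1, which drives MHC class I and antiviral genes, was at 132, 183, 137 and 147 CPM in PBS tumors and at 543, 696, 428, 654 and 506 CPM in ICB tumors. It was at 401, 513, 485, 442 and 282 CPM with 5-FU+ICB and at 194, 513, 214, 526 and 394 CPM with cisplatin+ICB. All 15 of these tumors lay above the highest PBS tumor, although cisplatin+ICB replicates 1 and 3 did so narrowly. Irf1 rose by 1.94 ± 0.24 with ICB (adjusted p = 7.15e-05), 1.51 ± 0.24 with 5-FU+ICB (adjusted p = 0.000465) and 1.31 ± 0.29 with cisplatin+ICB (adjusted p = 0.0190). With 5-FU alone, at 180, 232, 304, 134 and 235 CPM, it overlapped PBS and the difference of 0.54 ± 0.23 was not called by edgeR (adjusted p = 0.0894), whereas DESeq2 called it at 0.59 ± 0.23 (adjusted p = 0.0403).

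Irf8, which is needed for macrophages and for dendritic cells that cross-present antigen, was at 40.9, 62.2, 35.1 and 45.6 CPM in PBS tumors and at 193, 296, 240, 149 and 248 CPM in ICB tumors. It was at 244, 64.3, 196, 167 and 348 CPM with 5-FU+ICB and at 68.7, 163, 62.4, 173 and 159 CPM with cisplatin+ICB. The lowest tumors, 5-FU+ICB replicate 2 and cisplatin+ICB replicate 3, barely exceeded the highest PBS tumor. Irf8 rose by 2.31 ± 0.46 with ICB (adjusted p = 0.00126), 2.16 ± 0.45 with 5-FU+ICB (adjusted p = 0.00188) and 1.46 ± 0.35 with cisplatin+ICB (adjusted p = 0.0253). Irf8 is itself a gene of macrophages, B cells and dendritic cells. The summed macrophage markers (Adgre1, Csf1r, C1qa, C1qb, Cd68 and Mrc1) ran from 1349 to 2059 CPM in PBS and from 2802 to 7724 CPM in ICB. They overlapped PBS with 5-FU+ICB (1460 to 6605 CPM, median 3836 beside 1466 in PBS) and with cisplatin+ICB (1726 to 3132 CPM). The summed dendritic cell markers (Flt3, Zbtb46, Xcr1, Clec9a and Siglech) ran from 13.3 to 17.8 CPM in PBS and from 23.3 to 51.8 CPM in ICB, and overlapped PBS with 5-FU+ICB (10.2 to 86.8 CPM) and with cisplatin+ICB (11.7 to 28.0 CPM). The 4 B cell markers summed to 13.6 to 17.3 CPM in PBS (median 15.0), 6.64 to 24.4 in ICB (median 7.91), 13.4 to 770 in 5-FU+ICB and 7.43 to 21.5 in cisplatin+ICB. Called higher than PBS were 6 of 6 macrophage, 2 of 5 dendritic cell and 0 of 4 B cell markers with ICB, 4, 3 and 3 with 5-FU+ICB and 1, 1 and 0 with cisplatin+ICB. The part of these cells in the rise was not tested.

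Socs1, the feedback inhibitor, followed the same groups. It was at 9.08, 15.0, 12.2 and 13.9 CPM in PBS tumors, at 41.0, 81.6, 29.8, 49.0 and 40.4 CPM with ICB, and at 44.0, 42.8, 43.7, 40.6 and 62.3 CPM with 5-FU+ICB. Cisplatin+ICB tumors were at 16.5, 30.5, 15.6, 39.7 and 40.4 CPM. None of these tumors overlapped PBS, and Socs1 rose by 1.98 ± 0.33 with ICB (adjusted p = 0.000521), 1.92 ± 0.33 with 5-FU+ICB (adjusted p = 0.000762) and 1.20 ± 0.33 with cisplatin+ICB (adjusted p = 0.0417). The last of these calls was the least secure, being lost in 7 of the 9 fits that each left out 1 tumor: without PBS replicate 1, 2, 3 or 4 or cisplatin+ICB replicate 2, 4 or 5. In the same comparison Irf1 was lost in 5 fits, without PBS replicate 1, 3 or 4 or cisplatin+ICB replicate 2 or 4, and Irf8 in 6, those 5 and the fit without cisplatin+ICB replicate 5.

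Since Irf1, Irf8 and Socs1 moved together, the 250 bases upstream of each RefSeq start site (build GRCm38.p6) are shown with matches to 2 motifs in capitals. The motifs were the GAS element TTCNNNGAA, which reads the same on both strands, and a pair of GAAA words with any 2 bases between them, as bound by IRF proteins, searched on both strands. Irf1 lies on chromosome 11 and its window is chr11:53769764-53770013 on the plus strand. Irf8 lies on chromosome 8, window chr8:120736108-120736357, plus strand. Socs1 lies on chromosome 16, window chr16:10785537-10785786, minus strand.
Irf1: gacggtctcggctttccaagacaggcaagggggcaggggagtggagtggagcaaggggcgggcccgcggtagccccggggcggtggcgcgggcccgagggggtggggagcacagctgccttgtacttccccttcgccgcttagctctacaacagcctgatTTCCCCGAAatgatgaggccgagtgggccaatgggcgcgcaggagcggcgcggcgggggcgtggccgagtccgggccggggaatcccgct
Irf8: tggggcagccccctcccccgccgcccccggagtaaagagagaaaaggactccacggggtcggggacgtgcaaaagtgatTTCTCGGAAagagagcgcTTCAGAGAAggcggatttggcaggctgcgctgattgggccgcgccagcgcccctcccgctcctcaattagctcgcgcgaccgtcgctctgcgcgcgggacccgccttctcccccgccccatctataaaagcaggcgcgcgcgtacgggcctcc
Socs1: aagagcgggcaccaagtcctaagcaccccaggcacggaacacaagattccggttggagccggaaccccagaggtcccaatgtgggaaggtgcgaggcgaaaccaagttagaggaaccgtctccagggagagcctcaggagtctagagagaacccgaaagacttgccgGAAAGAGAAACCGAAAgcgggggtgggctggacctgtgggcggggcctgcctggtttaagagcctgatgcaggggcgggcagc
Irf1 held 1 GAS match, 90 to 82 bases before the start site. Irf8 held 2 GAS matches and Socs1 held 2 overlapping matches to the paired GAAA words and no GAS match. In the matching window of Ifng there was 1 GAS match at its far end, and those of Ifngr1, Ifngr2, Jak1 and Jak2 held neither motif. Of the 32851 promoter windows in the table, 7.02% held the GAS letters and 2.98% the paired GAAA letters. A match is a description of these letters only. Irf1 and Irf8 each have another annotated start site, whose windows held neither motif.

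To ask how far the levels moved with leukocyte content, each gene was also expressed relative to Ptprc in the same tumor, as a difference of log2 CPM, without a test. Ptprc itself rose with ICB (2.00 ± 0.44, adjusted p = 0.00231), 5-FU+ICB (2.15 ± 0.44, adjusted p = 0.00174) and cisplatin+ICB (1.41 ± 0.33, adjusted p = 0.0238). Ifng remained higher on this scale. It lay at -8.41 to -7.33 in PBS, -4.93 to -4.65 in ICB, -7.10 to -5.97 in 5-FU, -5.86 to -4.58 in 5-FU+ICB and -7.14 to -4.48 in cisplatin+ICB, each of these 4 treated groups above PBS without overlap. With cisplatin alone it lay at -8.04 to -7.43, within the PBS range, a difference of 0.16. The differences of the means from PBS were 3.04 with ICB, 2.53 with 5-FU+ICB, 2.09 with cisplatin+ICB and 1.25 with 5-FU. The low cisplatin+ICB replicates 1 and 3 stood at -7.01 and -7.14, beside -4.48, -4.68 and -5.39 in the other 3, so their split remained.

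**Figure D3:**
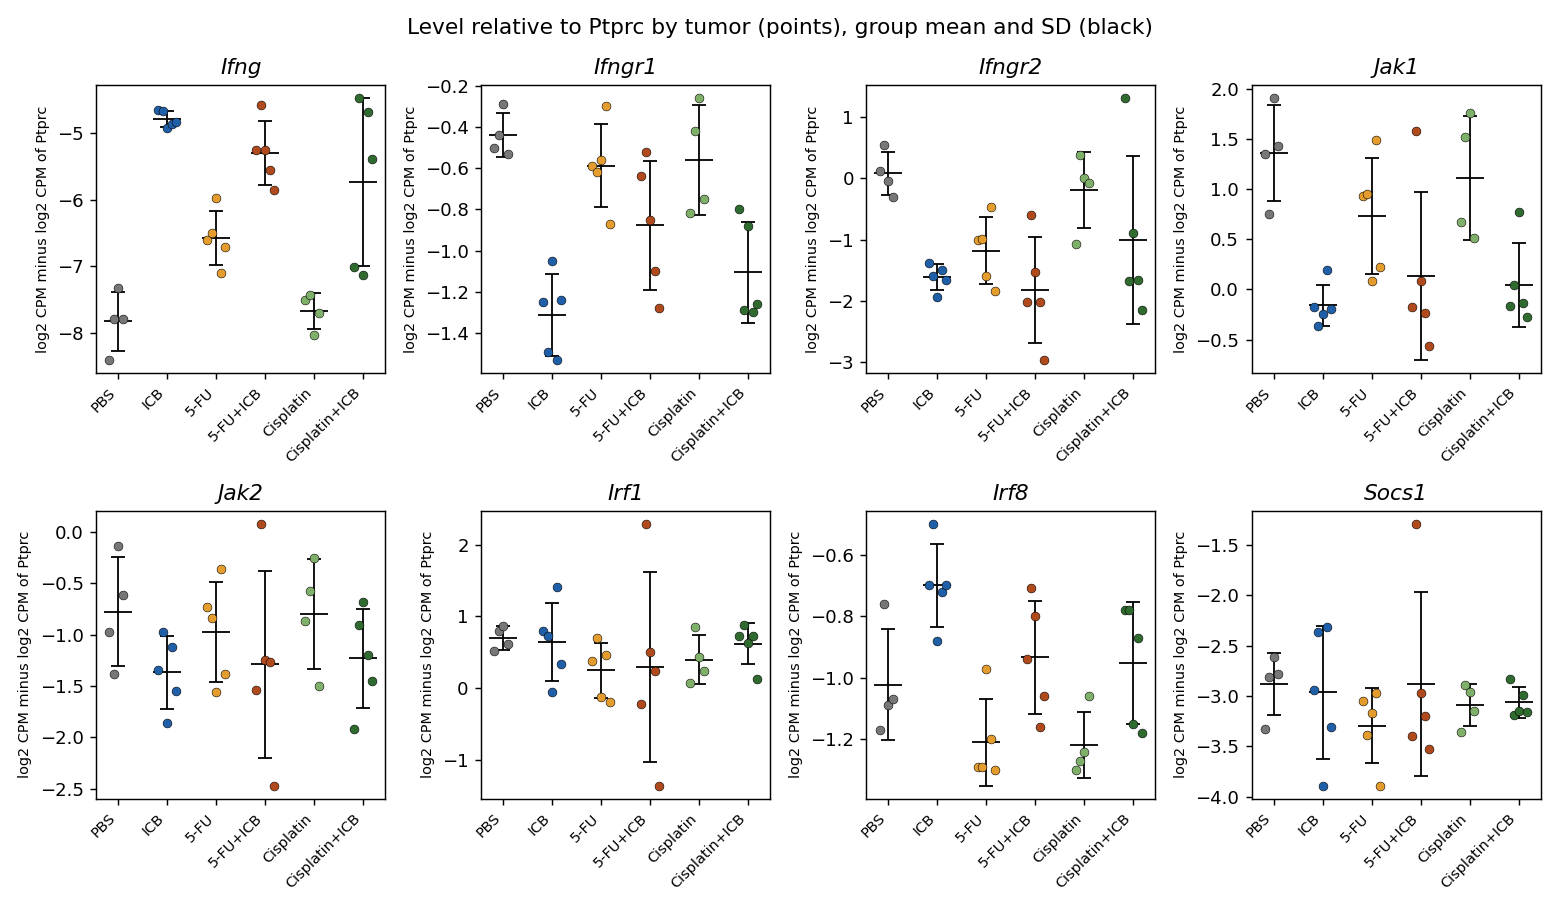
Level of each gene relative to Ptprc (log2 CPM minus log2 CPM of Ptprc, vertical axis) in every tumor by group, with the group mean and SD in black. Ifng stayed above PBS in the ICB group by 3.04, whereas Irf1, Irf8 and Socs1 overlapped PBS and Ifngr2 and Jak1 lay lower with ICB.

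The other genes did not follow Ifng on the Ptprc scale. With ICB against PBS the differences were -0.06 for Irf1, 0.32 for Irf8 and -0.08 for Socs1, all with overlapping groups. For Jak2 it was -0.59, for Ifngr1 -0.87, for Jak1 -1.52 and for Ifngr2 -1.70, and for the last 3 the ICB tumors lay below PBS without overlap. Irf8 tracked Ptprc most closely, within an SD of 0.11 to 0.20 in each group. Irf1 did not: 5-FU+ICB replicate 2 had the lowest Ptprc of its group (105 CPM) and the highest Irf1 (513 CPM), whereas replicate 5 had the highest Ptprc (723 CPM) and the lowest Irf1 (282 CPM).

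Activated T cells are a main source of IFN-γ in general. T cell markers were called higher than PBS in the groups where Ifng was (6 of 6 with ICB and with 5-FU+ICB, 5 with cisplatin+ICB and 4 with 5-FU). Of all genes, 19.0% were called higher with ICB, 21.9% with 5-FU+ICB, 4.70% with cisplatin+ICB and 9.98% with 5-FU. Between 5-FU+ICB and ICB the T cell markers went the opposite way from Ifng, with all 6 above 0 (median 0.99) and Ifng at -0.53, and neither the markers nor Ifng called. The 6 markers Cd3d, Cd3e, Cd3g, Cd8a, Cd8b1 and Cd4 summed to 22.8 to 30.6 CPM in PBS, 160 to 638 in ICB, 34.2 to 393 in 5-FU, 13.0 to 42.0 in cisplatin, 44.9 to 1333 in 5-FU+ICB and 20.9 to 348 in cisplatin+ICB. The NK markers Ncr1, Klrb1c, Klre1 and Klra8 summed to 8.20 to 24.1 CPM in PBS and 17.8 to 36.5 CPM in ICB, with Klra8 at the floor in all tumors. Relative to the mean of Cd3d, Cd3e and Cd3g, a scale added after the data were seen, Ifng remained higher than PBS without overlap with ICB (1.62) and with cisplatin+ICB (1.33). On that scale the differences with 5-FU+ICB (0.69), with 5-FU (0.45) and with cisplatin alone (0.51) had overlapping groups, and 5-FU against cisplatin was at -0.06. The share of T cells in the rise of Ifng was not tested.

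When ICB was added to a chemotherapy, edgeR called none of the 8 genes and DESeq2 called several. For 5-FU+ICB against 5-FU, Ifng had a log2 fold change of 2.05 ± 0.43 (edgeR adjusted p = 0.0902) and 5-FU replicate 3, at 5.21 CPM, lay above 5-FU+ICB replicate 2, at 4.34 CPM. Irf1 had 0.97 ± 0.22 (adjusted p = 0.102) and Socs1 had 1.28 ± 0.30 (adjusted p = 0.110), the latter without overlap of the groups. By edgeR 0.0112% of all genes were called, and 6 of the 8 had an unadjusted p under 0.05, beside 16.6% of all genes. DESeq2 called 2.97% of genes and 3 of the 8, namely Ifng (2.04 ± 0.43, adjusted p = 0.00143), Irf1 (adjusted p = 0.00313) and Socs1 (adjusted p = 0.00791). The edgeR count reached 5 without 5-FU+ICB replicate 2, adding Ifng, Jak2, Irf1, Irf8 and Socs1, in a fit that called 10.9% of all genes. Without 5-FU replicate 3 it was 4, the same without Jak2, beside 3.58%.

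For cisplatin+ICB against cisplatin, Ifng had a log2 fold change of 3.79 ± 0.73 (edgeR adjusted p = 0.0693), and every cisplatin+ICB tumor lay above every cisplatin tumor. Irf1 had 1.35 ± 0.29 (adjusted p = 0.0693), also without overlap. By edgeR 0% of genes were called, and 5 of the 8 had an unadjusted p under 0.05, beside 14.2% of all genes. DESeq2 called 4.20% of genes and 4 of the 8, with adjusted p-values of 7.51e-06 for Ifng, 0.000431 for Irf1, 0.00702 for Irf8 and 0.0190 for Socs1. The edgeR count was 5 without cisplatin+ICB replicate 1, beside 11.9% of all genes, and 4 without replicate 3, beside 3.04%, the tumors with the lowest Ifng of their group.

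When a chemotherapy was added to ICB, no member was called by either test. For 5-FU+ICB against ICB, Ifng differed by -0.53 ± 0.41 (adjusted p = 0.690), Irf1 by -0.42 ± 0.22 and Ifngr1 by 0.47 ± 0.35, and none of the 8 had an unadjusted p under 0.05, beside 10.9% of all genes. In that comparison edgeR called 0.229% and DESeq2 1.68% of all genes. For cisplatin+ICB against ICB, Ifng differed by -0.90 ± 0.58 (adjusted p = 0.407), Irf8 by -0.85 ± 0.32 (adjusted p = 0.291) and Socs1 by -0.76 ± 0.31 (adjusted p = 0.294). There edgeR called 0% and DESeq2 0.260% of genes, and 3 of the 8 had an unadjusted p under 0.05, beside 15.9% of all genes. Of the 8 values in that comparison, 7 were negative, beside 9429 of 17819 genes tested that were above 0. Ptprc (-0.59), all 6 T cell and all 6 macrophage markers were also below 0, whereas 3 of 4 neutrophil and 3 of 4 B cell markers were above 0.

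Whether 5-FU changed the response to ICB was tested as an interaction, the log2 difference between 5-FU+ICB and 5-FU minus that between ICB and PBS. For Ifng it was -3.22 ± 0.66, the largest of the 8, with an unadjusted p of 0.000119 and an edgeR adjusted p of 0.0621. DESeq2 called it, at -3.28 ± 0.67 (adjusted p = 0.000417), together with Irf1 at -1.01 ± 0.32 (adjusted p = 0.0279). Relative to Ptprc, without a test, the interaction was -1.76 for Ifng and turned sign for Irf1, at 0.10. By edgeR none of the 8 was called, beside 0.0893% of all genes, and 3 had an unadjusted p under 0.05, beside 23.9% of all genes. DESeq2 called 9.57% of genes. The edgeR call of Ifng was made without PBS replicate 3 or 4 (9.27% and 5.56% of all genes called), 5-FU replicate 4 (0.456%) or 5-FU+ICB replicate 4 (5.35%), and its value ranged from -3.46 to -2.64 over the 19 fits that each left out 1 tumor. For cisplatin the interaction of Ifng was -1.46 ± 0.94 (adjusted p = 0.565). None of the 8 was called by edgeR or DESeq2, beside 0% and 0.00285% of all genes, and by edgeR none had an unadjusted p under 0.05, beside 7.14% of all genes.

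The chemotherapies were also set against each other. For 5-FU against cisplatin, Ifng differed by 2.12 ± 0.67 (edgeR adjusted p = 0.141) and was called by DESeq2 at 2.19 ± 0.64 (adjusted p = 0.0282). By edgeR none of the 8 was called and 3 had an unadjusted p under 0.05, beside 15.5% of all genes, and 0.362% of genes were called, beside 3.67% by DESeq2. For 5-FU+ICB against cisplatin+ICB, Jak1 differed by 0.64 ± 0.21 (edgeR adjusted p = 0.0861) without overlap of the groups, and was called by DESeq2 (0.62 ± 0.21, adjusted p = 0.0414). Ifng differed by 0.38 ± 0.57 (adjusted p = 0.697). By edgeR none of the 8 was called, 3 had an unadjusted p under 0.05, beside 25.7% of all genes, and 0.297% of genes were called, beside 8.32% by DESeq2. Without 5-FU+ICB replicate 2, edgeR called Ifngr1 and Jak1, beside 11.6% of all genes. The doses of the 2 drugs differ and were each set for that drug.

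Most of the named target genes of IFN-γ were called higher than PBS by edgeR in the groups where Ifng was. Cell type markers rose too, with median log2 fold changes with ICB of 3.70 for T cell, 2.09 for neutrophil and 1.77 for macrophage markers. How far the targets followed Ifng or these cells was not tested. The list of 28 targets held chemokine, GTPase, antigen processing and presentation, and MHC class II genes. It also held Ciita, Nlrc5, Ido1, Nos2, Cd274, Icam1, Batf2, Serpina3g and Ubd. All 28 rose with ICB, beside 19.0% of all genes called higher, with a median log2 fold change of 2.79. With ICB, Nos2, the inducible nitric oxide synthase, rose by 7.78 ± 0.76 (adjusted p = 1.33e-05), Ido1, which degrades tryptophan, by 4.31 ± 0.57 (adjusted p = 0.000116), Cxcl9, a T cell attracting chemokine, by 4.17 ± 0.61 and the GTPase gene Gbp5 by 4.07 ± 0.38. With 5-FU+ICB all 28 rose, beside 21.9% of all genes, with a median of 2.69, and with cisplatin+ICB 23 of 28 rose, beside 4.70%, with a median of 2.10. In the standing-apart cisplatin+ICB replicate 1, 12 of the 28 lay above every PBS tumor, 8 within the PBS range and 8 below every PBS tumor (Cxcl10, Gbp5, Gbp7, Irgm1, Igtp, Tap2, Icam1 and Batf2), whereas in replicates 2, 4 and 5 all 28 lay above and in replicate 3, 24. How many of all genes lay outside the PBS range in each tumor was not counted, so these counts cannot be read as particular to the targets. The count of 23 became 26 without cisplatin+ICB replicate 1 (35.3% of all genes called), 11 without replicate 2 or 4 (1.40% and 1.50%) and 13 without replicate 5 (2.04%). It was 0 without PBS replicate 1, 3 or 4 or in the model of those 2 groups alone, where 0% of all genes were called. With 5-FU alone 24 of 28 rose, beside 9.98%, with a median of 1.70, while Psmb8, Psmb9, Psmb10 and B2m did not pass; the count was 12 with all 6 groups joined, beside 4.45% of all genes called. Among those that did, Cxcl9 rose by 3.24 ± 0.58 (adjusted p = 0.00296), Cd74, the MHC class II chaperone, by 2.79 ± 0.76 (adjusted p = 0.0155) and Ubd by 2.69 ± 0.83 (adjusted p = 0.0266). With cisplatin alone none of the 28 was called by edgeR, beside 0% of all genes, and 1 had an unadjusted p under 0.05, beside 1.78%, with a median of 0.28. Among the cisplatin tumors, 19 and 16 of the 28 lay above every PBS tumor in replicates 1 and 4, 6 above and 3 below in replicate 2, and 16 below every PBS tumor in replicate 3. Here too the share of all genes outside the PBS range was not counted. With 5-FU, edgeR did not call Irf1, Irf8 or Socs1, whereas DESeq2 called Irf1 (adjusted p = 0.0403). The difference between these 3 genes and the listed targets was not tested.

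**Figure D4:**
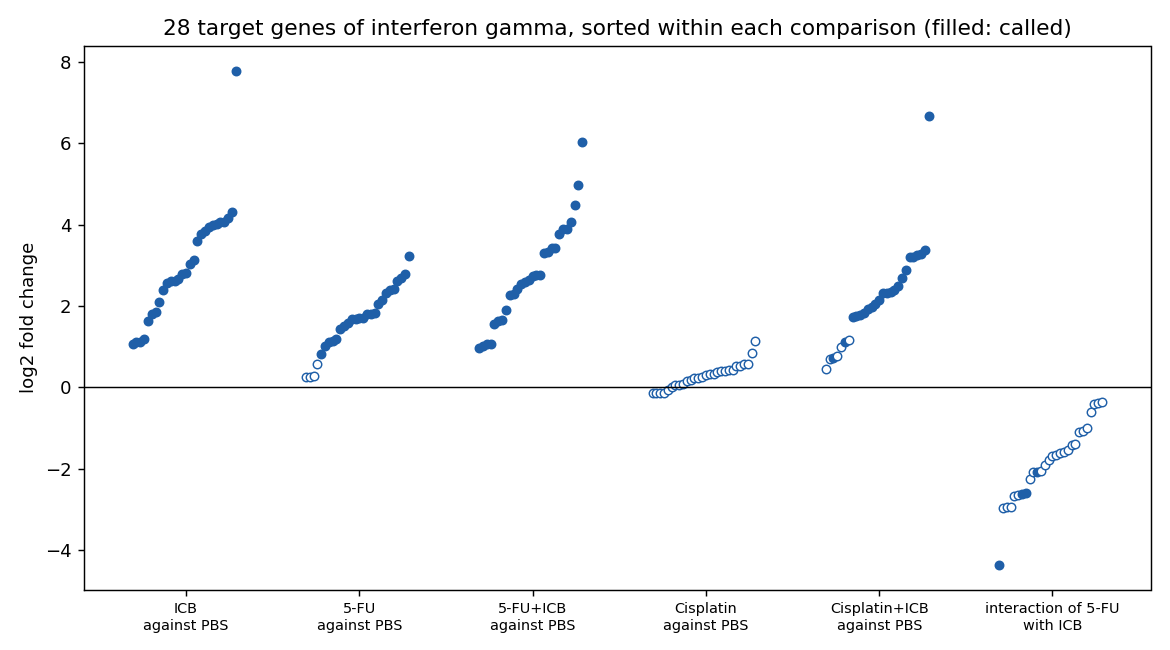
Log2 fold change (vertical axis) of each of the 28 target genes in 5 comparisons with PBS and in the interaction of 5-FU with ICB, sorted within each; filled points were called. All 28 lay above 0 with ICB, 5-FU, 5-FU+ICB and cisplatin+ICB, and all 28 lay below 0 in the interaction, where 4 were called.

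In the interaction of 5-FU with ICB, 4 targets were called, beside 0.0893% of all genes, and all were negative. This count was 15 without PBS replicate 3 or 4 or 5-FU+ICB replicate 4 (9.27%, 5.56% and 5.35% of all genes called) and 13 without 5-FU replicate 4 (0.456%). It was 2 without ICB replicate 3 (0.0392%), 3 without 5-FU replicate 1 (0.0450%), and 0 without any 1 of the other 13 tumors or with all 6 groups joined. DESeq2 called 20, beside 9.57% of all genes. The 4 called by edgeR with all tumors were Nos2 (-4.36 ± 0.80, adjusted p = 0.0484), Cd274, the gene of PD-L1 (-2.62 ± 0.43, adjusted p = 0.0471), Gbp5 (-2.59 ± 0.45, adjusted p = 0.0484) and Gbp7 (-2.08 ± 0.34, adjusted p = 0.0471). The median of the 28 was -1.72, beside 0.03 for all genes tested. Cell type markers lay on the same side, with medians of -1.45 for the 6 T cell markers, -1.28 for the 6 macrophage markers and -1.75 for the 4 neutrophil markers, all of them below 0 and none called, and -0.94 for Ptprc. The 4 B cell markers lay above 0, with a median of 0.74. The part of these cells in the interaction was not tested. Cd274 illustrates the pattern, since it rose by 3.99 ± 0.35 with ICB, 2.05 ± 0.32 with 5-FU and 3.42 ± 0.34 with 5-FU+ICB, so that the combination lay near ICB rather than at the sum of both.

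Genes upstream of Ifng rose as well. Of 15 inducers, the cytokines and receptors of IL-12, IL-18, IL-27, IL-15 and IL-21 with the factors STAT4, T-bet, EOMES and RUNX3, 13 rose with ICB, 14 with 5-FU+ICB and 9 with 5-FU, beside 19.0%, 21.9% and 9.98% of all genes called higher. With cisplatin+ICB 6 of the 14 tested rose, beside 4.70% of all genes. These 6 calls were lost without PBS replicate 1, 3 or 4, where 0% of all genes were called. Il12rb2, the signaling chain of the IL-12 receptor, rose by 4.41 ± 0.61 with ICB (adjusted p = 0.000163), 4.53 ± 0.61 with 5-FU+ICB and 2.47 ± 0.57 with 5-FU (adjusted p = 0.00824). Tbx21, which encodes T-bet, rose by 3.28 ± 0.61 with ICB (adjusted p = 0.000899), and Il27 rose by 3.28 ± 0.50 (adjusted p = 0.000326).

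Of 12 other negative regulators, 6 rose with ICB, beside 19.0% of all genes called higher, and 2 with 5-FU, beside 9.98%. With 5-FU+ICB 5 rose, beside 21.9%, and Pias3 fell (-0.56 ± 0.21, adjusted p = 0.0397), while with cisplatin+ICB 1 rose, beside 4.70%. Cish, a relative of Socs1, rose by 2.52 ± 0.41 with ICB (adjusted p = 0.000439) and by 1.29 ± 0.39 with 5-FU (adjusted p = 0.0243). Socs3 rose by 1.23 ± 0.35 with ICB and by 1.50 ± 0.35 with 5-FU (adjusted p = 0.00849). With 5-FU Socs1 was at 0.64 ± 0.32 and was not called (adjusted p = 0.139), and its difference from Socs3 and Cish was not tested.

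Tumors within a treatment group varied together in these genes. With each group's mean removed, the log2 CPM of Ifng over the 28 tumors correlated with Irf8 (r = 0.84, rho = 0.93), Socs1 (r = 0.78, rho = 0.80), Ifngr1 (r = 0.74, rho = 0.87), Irf1 (r = 0.74, rho = 0.57), Jak2 (r = 0.73, rho = 0.69) and Jak1 (r = 0.64, rho = 0.64), and with Ptprc (r = 0.80, rho = 0.93). The two-sided permutation p-values of r, drawn within groups and adjusted over the 8 relations, were 2.67e-05 for Irf8, Ifngr1 and Ptprc, for which the unadjusted 1e-05 is the smallest these permutations can give. They were 0.000256 for Socs1 and Jak2, 0.00209 for Jak1 and 0.00514 for Irf1, and those of rho ranged from 2.67e-05 to 0.0178 over these 7 genes. For Ifngr2, r was -0.10 (adjusted permutation p = 0.933) and rho was 0.14 (adjusted permutation p = 0.542).

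**Figure D5:**
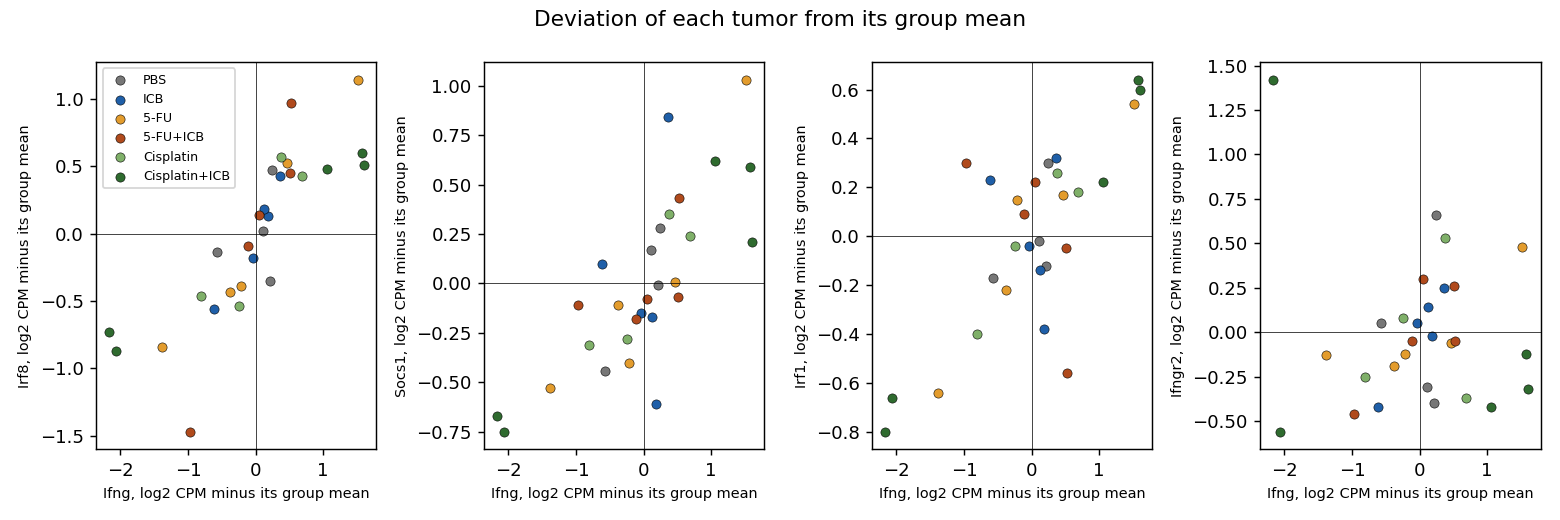
Deviation of each tumor's log2 CPM from its group mean for Ifng (horizontal axis) against that of Irf8, Socs1, Irf1 and Ifngr2 (vertical axes), coloured by treatment group. Irf8 follows Ifng (r = 0.84), and the cisplatin+ICB tumors lie at both ends of the Ifng axis.

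The cisplatin+ICB tumors, which lay in 2 separate sets of Ifng values, weighed on some of these relations. Without cisplatin+ICB replicates 1 and 3, the 2 tumors farthest from their group mean, r over the other 26 tumors was 0.88 for Irf8, 0.80 for Ifngr1, 0.66 for Socs1, 0.53 for Jak2, 0.46 for Irf1 and 0.42 for Jak1. The rho of Irf1 fell to 0.33, so its relation with Ifng rested in large part on those tumors. For Ifngr2, r moved from -0.10 to 0.49, since replicate 1 combined a low Ifng with the highest Ifngr2. Without the whole cisplatin+ICB group, r was 0.89 for Irf8 and 0.44 for Irf1 over 23 tumors. With Ifng and the other gene both taken relative to Ptprc, r lay between -0.37 for Ifngr2 and 0.36 for Irf8, a narrower and weaker range than without that scaling.

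The genes whose within-group pattern was most like that of Ifng, out of 13334 ranked, included C1rb, Cd274, Tap1 and Prf1, with r from 0.92 to 0.93 over 28 tumors. Prf1 encodes perforin, the pore protein of killer cells, and Tap1 a peptide transporter. The genes most like Irf1 were Gbp2, Tgtp2, Il15ra, Iigp1 and Gbp2b (r from 0.93 to 0.94). For Irf8 they included P2ry14 and Ptprc (both r = 0.97). For Socs1 the closest reached only 0.79 (Prr5l and Ms4a4d), with Ifng itself among the 5 closest, at 0.78. Ifngr1 was most like Txndc16 and Cotl1 (r = 0.97), Jak2 most like Rhbdf2 and Stat5a (r = 0.97), Jak1 most like Pak2 (r = 0.99) and Ifngr2 most like Tmem159 (r = 0.98), the last 2 with the standing-apart cisplatin+ICB replicate 1 among the points.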

How the data were processed

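Whole tumors were sequenced as 100-base single-end reads. Per the labels and the study's methods, the authors ran kallisto 0.46.0 against GRCm38 (mm10) and tximport, and deposited expected counts (23.7% of the values not whole) in 2 matrices, for the 5-FU and the cisplatin groups, that share the PBS and ICB tumors (9 tumors, identical values). The estimated counts were rounded. Tests used edgeR 4.0.16 in R 4.3.3 (filterByExpr, TMM, quasi-likelihood F-test, no covariate) on the 4 groups of a matrix, or on all 6 groups joined where the chemotherapies were set against each other; SE is the log2 fold change over the square root of F. Of the gene rows, 17916, 17819 and 18521 were tested in the 3 tables. Log2 CPM used a prior count of 2. Correlations used 100000 permutations within groups. The fits were tested on simulated data. DESeq2 1.42.0 and the alternatives in the closing section were run beside these.

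The 8 genes, the gene lists and the tests were chosen with earlier results of these data known. Named list genes were, for each list, up to 4 called with the largest fold in ICB against PBS and up to 3 more from other comparisons; others named were chosen after their values were seen. Likeness was ranked over genes with a mean count of at least 50. The floor of 3 counts covers counting error only, whereas each SE also takes in the spread between tumors. Same-numbered tumors are different mice, and the numbers were not treated as pairs. A total of 13 comparisons was made. Some items are not reported here.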

Additional observations from a re-analysis of the deposited data

Results flagged for a closer look

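Of 48 combinations of a gene and a group examined, 5 held a tumor far from the others of its group, beside about 1 in 20 expected by chance. Ifng in PBS replicate 1 was at a log2 CPM of -1.88, below the next at -1.20. Ifngr2 in 5-FU replicate 3 was at 6.77, above the next at 6.23. In cisplatin+ICB replicate 1, Ifngr2 was at 8.20 and Jak1 at 6.71, the nearest tumors being at 6.65 and 7.89. Socs1 in 5-FU+ICB replicate 5 was at 5.96, above the next at 5.46.

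For Ifng, every 5-FU tumor lay above the PBS mean (a difference of group means of 2.20 in log2 CPM), whereas every 5-FU+ICB tumor lay below the ICB mean (-0.58). The interaction that tests this difference was -3.22, with an edgeR adjusted p of 0.0621 and a DESeq2 adjusted p of 0.000417.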

How the results depend on the processing

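Of 899 values of a gene in a comparison under another test, library normalisation, filter, model or threshold, rescaling to marker genes not included, 839 kept their side of the threshold, 14 of them uncalled values that changed sign, 11 were no longer called, 49 became called and none of the called reversed. Of 1112 values with 1 tumor left out, 1055 kept their side, 26 lost and 31 gained a call. All 320 alternative group levels moved by less than 1 SD. For those that left out 1 tumor this was fixed in advance, since that cannot move a group mean by 1 SD. With DESeq2 in place of edgeR the number of the 8 genes called was 7 for ICB against PBS (33.4% of all genes), 5 for cisplatin+ICB against PBS (10.1%), 4 for 5-FU against PBS (24.9%), 3 for 5-FU+ICB against 5-FU, 4 for cisplatin+ICB against cisplatin, 1 each for 5-FU against cisplatin and 5-FU+ICB against cisplatin+ICB, and 2 for the interaction of 5-FU with ICB. At unadjusted p-values and the same fold threshold it was 5 for 5-FU against PBS, 5-FU+ICB against 5-FU and cisplatin+ICB against cisplatin, beside 33.0%, 13.4% and 11.9% of all genes, and 3 for cisplatin+ICB against ICB, 5-FU against cisplatin, 5-FU+ICB against cisplatin+ICB and the interaction of 5-FU, beside 13.9%, 13.7%, 22.7% and 21.5% of all genes. For 5-FU against PBS it was 1 with at least 10 counts in every tumor (25.4% of all genes) and 1 with all 6 groups joined (4.45%), a fit that gave 2 for cisplatin+ICB against cisplatin (0.146%). For cisplatin+ICB against PBS it was 0 in a model of those groups alone (0%). Leaving out each tumor gave 5 to 7 for ICB against PBS, 1 to 3 for 5-FU against PBS, 0 to 6 for cisplatin+ICB against PBS, 0 to 5 for 5-FU+ICB against 5-FU and for cisplatin+ICB against cisplatin, 0 to 2 for 5-FU+ICB against cisplatin+ICB and 0 to 1 for the interaction of 5-FU. The cause of these differences was not tested. The 5 to 12 counts of Ifng in PBS limit its folds.

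A replicate block, which pairs tumors by number, gave 0 of 8 for cisplatin+ICB against PBS, beside 0.533% of all genes, with adjusted p from 0.0504 (Ifng and Irf1) to 0.0986 (Socs1), and changed no other call of the 8. Of the 28 targets it called 5 in that comparison, 21 for 5-FU, 27 for 5-FU+ICB and 0 in the interaction of 5-FU, beside 0.533%, 18.6%, 35.8% and 0% of all genes. Same-numbered tumors correlated between -0.78 and 0.75, and in none of 9 comparisons did every pair exceed 0.1, so no pairing is shown.

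Rescaling turned the sign of some called differences. Relative to Ptprc these were, with ICB, Ifngr1 (-0.87), Jak2 (-0.59), Irf1 (-0.06) and Socs1 (-0.08); with 5-FU, Jak2 (-0.20); with 5-FU+ICB, Ifngr1 (-0.44), Jak1 (-1.22), Jak2 (-0.52) and Irf1 (-0.41); and with cisplatin+ICB, Irf1 (-0.09) and Socs1 (-0.18). Relative to Cd3d, Cd3e and Cd3g, a scale chosen after seeing the data, they were, with ICB, Ifngr1 (-2.29), Jak2 (-2.01), Irf1 (-1.48), Irf8 (-1.10) and Socs1 (-1.50); with 5-FU, Jak2 (-0.99); with 5-FU+ICB, Ifngr1 (-2.28), Jak1 (-3.07), Jak2 (-2.36), Irf1 (-2.25), Irf8 (-1.75) and Socs1 (-1.84); and with cisplatin+ICB, Irf1 (-0.84), Irf8 (-0.69) and Socs1 (-0.94). Within groups and relative to Ptprc, the correlation of Ifng was -0.24 with Ifngr1 and -0.03 with Jak1. The correlations without the cisplatin+ICB group or its replicates 1 and 3, and the counts of targets under other settings, were also chosen after seeing the data.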
